A study of Homo sapiens with 18 samples.

Results

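The genes described here make, cut and bind hyaluronan: the synthases HAS2 and HAS3, the hyaluronidases HYAL1, HYAL2 and HYAL3, and the receptor CD44. Their probes were taken as every probe whose gene symbol in the platform annotation of the array was 1 of these 6 names. A named probe was found for 5 of the 6 genes, 13 probes in all, among 20046 genes named on the array, and HYAL1 was not analysed here. A probe counted as detected on an array when its detection p, a comparison with that array's own negative controls, was under 0.01. Detection on all 3 arrays of at least 1 group kept 8 of the 13 probes and 11978 genes in all. The family was selected on the UC14 comparison, where HAS3 and CD44 were known to be lower under p63 shRNA, so its values in UC14 are given as a description without a test. Earlier results of these data were also known when the other genes and the tests were chosen.

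Gene expression was measured in 3 urothelial cancer cell lines, on 18 Illumina bead arrays in 6 groups of 3. UC14 cells carried either a non-targeting shRNA or an shRNA against p63, a transcription factor of basal epithelia. Scaber cells received a non-targeting siRNA or an siRNA against STAT3, the signal transducer of the IL-6 family. UC7 cells were controls or received 1 µM rosiglitazone, which activates the nuclear receptor PPARγ, for 24 h. Each line is 1 model with its own intervention. Nothing in the labels tells if replicate arrays stem from separate cultures, so the spread behind each p-value may be technical.

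Hyaluronan is a long unbranched polysaccharide that HAS enzymes assemble at the plasma membrane from UDP-glucuronic acid and UDP-N-acetylglucosamine and push out of the cell. HYAL2, anchored at the cell surface, and HYAL1, a lysosomal enzyme, cut it into shorter pieces, and CD44 is its main cell surface receptor, expressed in urothelium mainly by basal cells and spliced into many forms. Levels below are background-corrected, quantile-normalized log2 signals, a change is a difference of such levels, and errors are SDs for levels and standard errors for changes, with 3 arrays per group. A level depends on the probe as well as on the transcript, so levels were compared between groups and not between probes.

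Arrays of the lines differed as a whole. The median raw signal of an array lay between 51.6 and 56.3 in UC7 but between 96.3 and 115.8 in the other lines. UC14 arrays detected 14032 to 15432 probes, those of Scaber 16473 to 18021 and those of UC7 19093 to 20440. STAT3 was 9.61-fold lower under its siRNA in Scaber (log2 change -3.26 ± 0.11, adjusted p = 7.13e-12 by limma), and FABP4, a PPARγ target, was 96.8-fold higher in rosiglitazone-treated UC7. TP63 was not analysed here, so the p63 knockdown was not checked on these arrays. All 6 epithelial markers (EPCAM, CDH1 and keratins) were detected on every array. Of 6 stromal markers 1 or 2 were detected on all 3 arrays of a group, of 4 immune markers 1 or 2, and of 3 endothelial markers 0 or 1. Among these, LUM had a mean of 11.62 in Scaber with non-targeting siRNA and CD68 means of 6.43 to 11.53 over the groups, whereas COL3A1, PDGFRB, DCN, PTPRC, CD3E and VWF were undetected on every array. Their part in the results was not tested. The arrays hold RNA of many cells together, so fewer expressing cells and less RNA per cell cannot be told apart.

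In UC14, the comparison that chose them, and in UC7, HAS3 and CD44 were the members with the largest differences. HAS3 was lower under p63 shRNA in UC14 and under STAT3 siRNA in Scaber, and higher under rosiglitazone in UC7. CD44 was lower in UC14 under p63 shRNA and lower in UC7 under rosiglitazone. In Scaber its brightest probe changed by -0.10 ± 0.08 and did not pass the threshold. In UC7 the synthase and the receptor thus moved in opposite directions, 3.92-fold up and 3.08-fold down.

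HAS3, a membrane-bound synthase, was read by 2 probes. The brighter one, ILMN_1794501, was detected on all 18 arrays. On the UC14 arrays with non-targeting shRNA it stood at 9.72, 9.74 and 9.74, and on those with p63 shRNA at 6.54, 6.48 and 6.54. The groups lay far apart with little spread within either. The difference was -3.22 ± 0.09, or 9.29-fold lower, the 15th lowest change of 11978 genes in that comparison, which had chosen the gene. The deposited normalized values, which are not background-corrected, gave -2.55 for the same difference.

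In Scaber with non-targeting siRNA the brighter HAS3 probe stood at 10.77, 10.87 and 10.89, and with STAT3 siRNA at 10.27, 10.37 and 10.44. Every STAT3 siRNA array lay below every control array. HAS3 fell by 0.49 ± 0.09 on the log2 scale, or 1.40-fold (adjusted p = 0.00106 by limma over all probes tested). It was 1223rd among 11978 genes ordered from the lowest change, so the decrease was small beside those of many other genes.

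In UC7 the brighter HAS3 probe stood at 8.07, 8.04 and 7.80 on the control arrays and at 10.05, 9.80 and 9.97 on the rosiglitazone arrays. All treated arrays lay above all controls. HAS3 rose by 1.97 ± 0.09, or 3.92-fold (adjusted p = 2.05e-10 by limma), the 44th largest increase of 11978 genes. The mean raw signal was 428 in the controls and 1400 under rosiglitazone.

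Over the 6 groups, HAS3 on this probe ran from Scaber with non-targeting siRNA, the highest, through Scaber with STAT3 siRNA, UC7 with rosiglitazone, UC14 with non-targeting shRNA and UC7 controls to UC14 with p63 shRNA, the lowest. The arrays of neighbouring groups in this order did not overlap. Median scaling put UC7 with rosiglitazone (10.47) above Scaber with STAT3 siRNA (10.08) and kept the other places. Rosiglitazone-treated UC7, at 9.94 ± 0.13, lay between the controls of the other lines, UC14 at 9.73 ± 0.01 and Scaber at 10.84 ± 0.06.

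The dimmer HAS3 probe, ILMN_1668760, was undetected on all 6 UC14 arrays and on the UC7 controls, and detected on all 3 arrays of each other group. In UC7 it stood at 4.49, 4.58 and 4.38 on control arrays and at 5.42, 5.28 and 5.38 under rosiglitazone. It was therefore at least 1.32-fold higher with treatment (adjusted p = 0.000476 by limma), the same direction as the brighter probe. This bound sets the treated mean against the lowest signal of detected probes on each control array and holds for background-corrected values. The change ranged from 0.35 without background correction to 1.24 with neqc on the line alone.

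In Scaber the dimmer HAS3 probe did not follow the brighter one. It stood at 6.15, 6.27 and 5.76 with non-targeting siRNA and at 6.12, 6.58 and 6.22 with STAT3 siRNA. The groups overlapped, and the change of 0.25 ± 0.16 did not pass the threshold (adjusted p = 0.281 by limma). The decrease of HAS3 in Scaber thus rests on 1 of its 2 probes.

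The stretches of 250 bases before the RefSeq start of HAS3 and of CD44 (GRCh38.p14) are shown because these genes moved together in UC14 and apart in UC7. They are HAS3, chr16:69107290-69107539, and CD44, chr11:35138921-35139170, both on the plus strand and printed 5′ to 3′. Capitals mark the fixed letters of each match to CNNGNNNNNNCNNG, a loose core of binding elements of the p53 family, to which p63 belongs. RefSeq's gene span of HAS3 begins further upstream than this start.
HAS3: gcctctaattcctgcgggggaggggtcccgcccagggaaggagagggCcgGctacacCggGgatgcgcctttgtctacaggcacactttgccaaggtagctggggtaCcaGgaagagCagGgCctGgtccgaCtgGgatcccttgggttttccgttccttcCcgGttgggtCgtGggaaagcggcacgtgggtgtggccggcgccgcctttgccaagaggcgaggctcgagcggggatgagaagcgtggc
CD44: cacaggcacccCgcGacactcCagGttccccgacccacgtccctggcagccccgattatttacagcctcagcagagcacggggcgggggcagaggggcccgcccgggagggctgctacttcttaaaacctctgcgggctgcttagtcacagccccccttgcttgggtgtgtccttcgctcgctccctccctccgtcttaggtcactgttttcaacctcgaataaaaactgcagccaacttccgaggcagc

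The HAS3 stretch held 4 matches to this core and the CD44 stretch 1. At least 1 match occurred in 68.6% of 35116 RefSeq promoters of this length. The share with 4 or more was not counted, so HAS3 is not called richer in this core than other genes. Its letters read the same on both strands, and the middle matches in HAS3 lie nearly side by side. Neither stretch held TTCNNNGAA, a core of STAT elements found in 6.57% of promoters, or, on either strand, AGGNCANAGGNCA, a direct repeat of the kind PPARγ binds, found in 0.268%. The stretches were 66% and 62.4% G and C. A match is only a match of letters, and the absence of 1 says nothing about sites outside these windows.

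**Figure D1:**
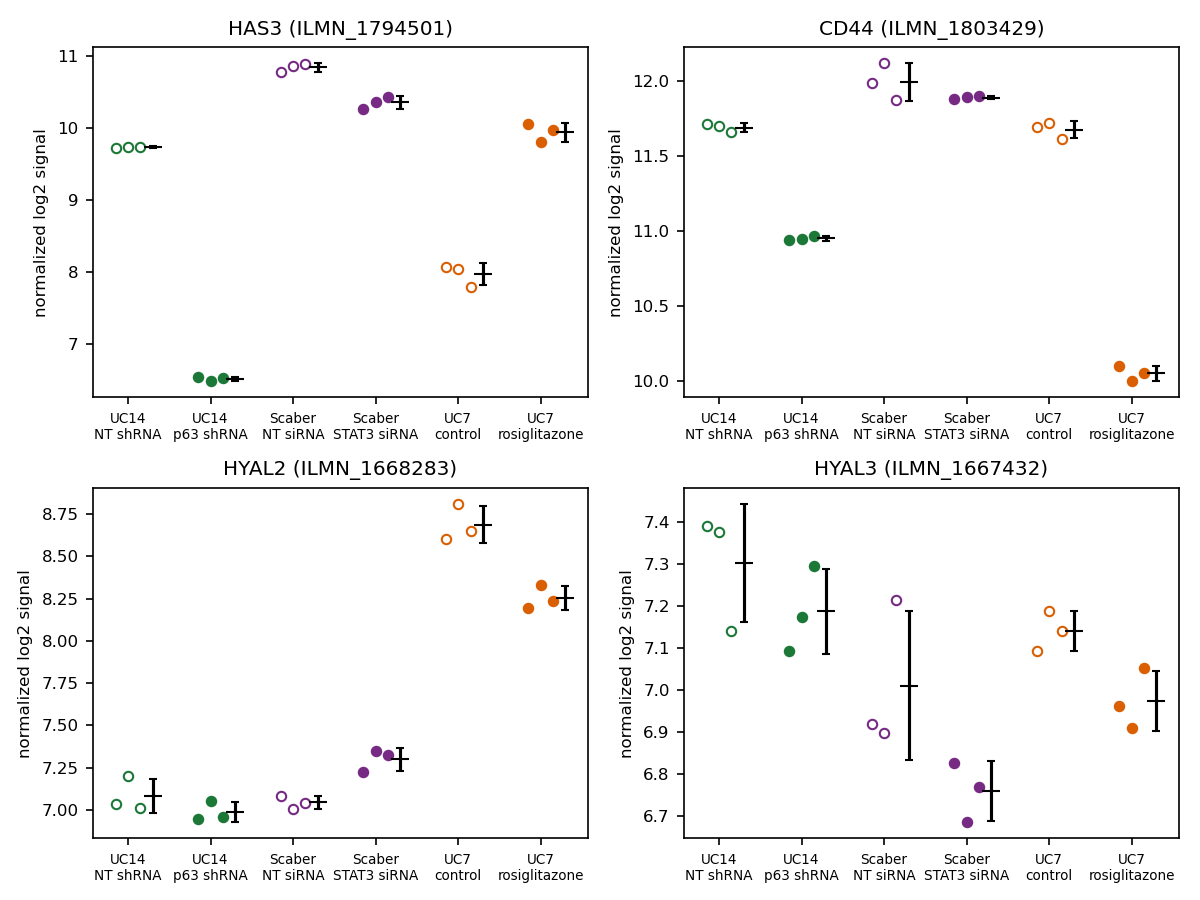
Normalized log2 signal (vertical axes, each with its own range) of the brightest probe of HAS3, CD44, HYAL2 and HYAL3 on each of 18 arrays, in 6 groups of 3. Open points are control arrays, filled points treated arrays, colours are cell lines, and the black cross with bars is the mean ± SD. HAS3 lies at 7.97 in UC7 controls and 9.94 under rosiglitazone, CD44 at 11.67 and 10.05.

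HAS2, the synthase of very long chains, was at or near background. Of its 4 probes, ILMN_1777562 and ILMN_2243036 were undetected on all 18 arrays. ILMN_1700935 was detected on 1 or 2 arrays of each group except Scaber with non-targeting siRNA, where it was detected on 0, so it was not tested. ILMN_1792978 was detected only under STAT3 siRNA in Scaber, on all 3 arrays, and passed the detection filter through that group alone.

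On ILMN_1792978 the Scaber arrays ranged from 4.72 to 5.26 with non-targeting siRNA and from 5.42 to 5.74 with STAT3 siRNA. The groups did not overlap after background correction and scaling, although their mean raw signals, 119 and 121, were nearly equal. The difference was 0.51, or 0.21 in the deposited normalized values. Since the probe entered the fit only through the group where it is high, this difference is a description, with no test.

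**Figure D2:**
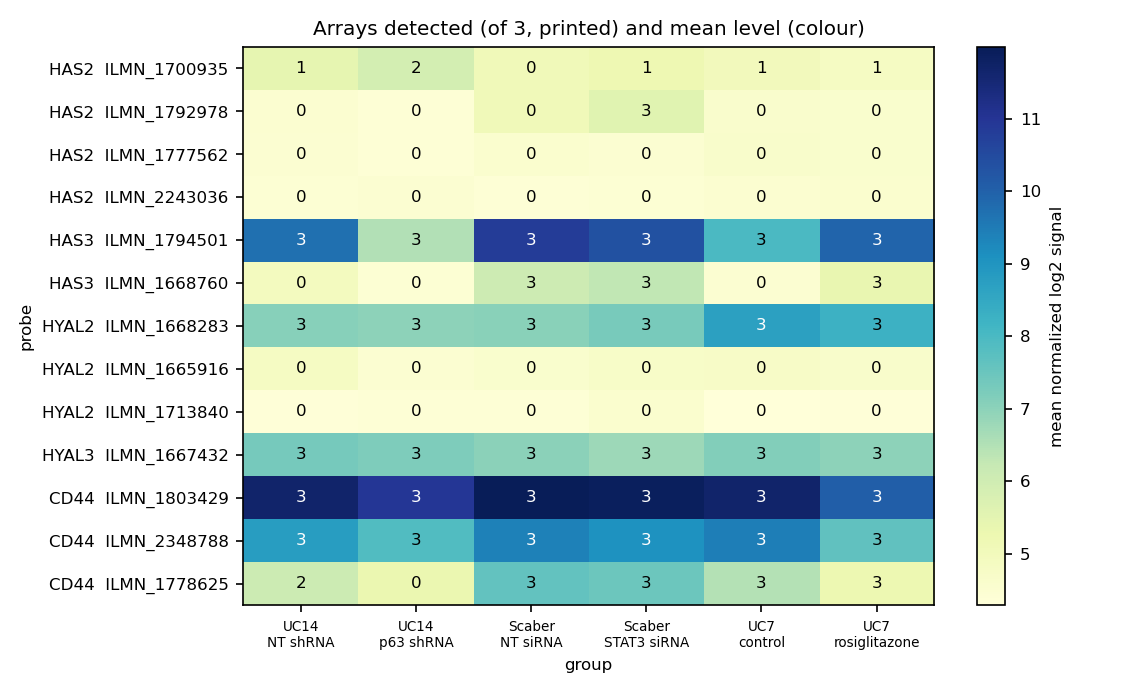
Number of arrays, of 3, on which each of 13 probes (rows) was detected in each of 6 groups (columns), with the mean normalized log2 signal as colour. Colours compare groups within a row and not rows with each other. The brighter HAS3 probe and 2 CD44 probes were detected on all 18 arrays, whereas 2 HAS2 probes and 2 HYAL2 probes were detected on none.

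HYAL2, which cuts long hyaluronan at the cell surface, was detected on all 18 arrays by ILMN_1668283, while its other 2 probes, ILMN_1665916 and ILMN_1713840, were undetected on all. In UC7 it stood at 8.60, 8.81 and 8.65 on control arrays and at 8.19, 8.33 and 8.23 under rosiglitazone. Every treated array lay below every control. HYAL2 fell by 0.43 ± 0.09, or 1.35-fold (adjusted p = 0.00133 by limma), so in UC7 the synthase HAS3 was higher while this hyaluronidase was lower.

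In Scaber HYAL2 stood at 7.08, 7.01 and 7.04 with non-targeting siRNA and at 7.22, 7.35 and 7.32 with STAT3 siRNA. The groups did not overlap, but the difference was small, 0.25 ± 0.09 (adjusted p = 0.0406 by limma). It passed the threshold in 4 of 17 other settings, and with each array scaled to the same median the difference was 0.07. Without 1 array it was 0.23 to 0.29, and leaving out control array 1, 2 or 3 or STAT3 siRNA array 2 or 3 ended the call (highest adjusted p = 0.115).

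In UC14 HYAL2 stood at 7.04, 7.20 and 7.01 with non-targeting shRNA and at 6.94, 7.05 and 6.96 with p63 shRNA. The groups overlapped, and the difference of -0.10 ± 0.09 became 0.11 under median scaling. UC7 held the highest HYAL2 levels of the 3 lines in both of its groups, Scaber with STAT3 siRNA came next, and the other 3 groups overlapped with their neighbours. Median scaling kept both UC7 groups highest.

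HYAL3, whose part in cutting hyaluronan is less well settled, was detected on all 18 arrays by its 1 probe, ILMN_1667432. Its changes were -0.25 ± 0.10 in Scaber (adjusted p = 0.0893 by limma) and -0.17 ± 0.10 in UC7 (0.302), so neither passed the threshold. In Scaber the treated arrays ranged from 6.69 to 6.83 and the controls from 6.90 to 7.22. In UC7 the ranges were 6.91 to 7.05 and 7.09 to 7.19. How many of all genes separate in this way was not counted, so no decrease is read from it. In UC14 the difference was -0.12 ± 0.10, with overlapping groups, and 0.09 under median scaling. RefSeq places the gene NAA80 wholly within the span of HYAL3, and whether the probe reads both was not tested.

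CD44 was read by 3 probes, annotated to different RefSeq transcripts; which splice forms each probe reads was not tested. The brightest, ILMN_1803429, was detected on all 18 arrays. In UC7 it stood at 11.69, 11.72 and 11.61 on control arrays and at 10.10, 9.99 and 10.05 under rosiglitazone. The groups were widely apart. CD44 fell by 1.63 ± 0.08 on this probe, or 3.08-fold (adjusted p = 2.41e-10 by limma), the 62nd lowest change of 11978 genes.

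The other CD44 probes also fell in UC7. ILMN_2348788 stood at 9.69, 9.38 and 9.30 on control arrays and at 7.78, 7.61 and 7.60 under rosiglitazone, a decrease of 1.80 ± 0.11 or 3.48-fold (adjusted p = 5.93e-09 by limma). ILMN_1778625 stood at 6.46, 6.53 and 6.45 against 5.18, 5.31 and 5.27, a decrease of 1.22 ± 0.13 or 2.34-fold (adjusted p = 2.81e-06). The size of the latter depended on the background correction and scaling: it was -0.52 without background correction, -0.59 in the deposited values and -1.60 under median scaling. On neither probe did treated and control arrays overlap. Of 3 basal urothelial markers, the keratins KRT5 and KRT14 were undetected on all 6 UC7 arrays, and the cadherin CDH3 was detected on all and fell with CD44, from a mean of 10.69 to 9.46. Its part in the CD44 result was not tested.

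In Scaber CD44 differed little. The brightest probe stood at 11.98, 12.12 and 11.87 with non-targeting siRNA and at 11.88, 11.89 and 11.90 with STAT3 siRNA. These groups overlapped, and the difference of -0.10 ± 0.08 did not pass the threshold (adjusted p = 0.39 by limma). ILMN_2348788 was lower by a small margin, at 9.30, 9.34 and 9.52 against 9.10, 8.92 and 9.16, a difference of -0.33 ± 0.11 (adjusted p = 0.0472). That call was lost in 11 of 16 other settings, and leaving out any 1 of the 6 Scaber arrays ended it (differences of -0.38 to -0.26, adjusted p = 0.0533 to 0.17). ILMN_1778625 differed by -0.17 ± 0.13 with overlapping groups (adjusted p = 0.414). Of the basal markers, CDH3 stood at means of 12.05 and 10.89 in these groups and KRT14 at 10.51 and 9.03. KRT5 went the other way, at 10.94 and 11.18. Their part was not tested.

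In UC14, the comparison that chose the family, all 3 CD44 probes were lower under p63 shRNA. The brightest stood at 11.71, 11.70 and 11.66 with non-targeting shRNA and at 10.94, 10.94 and 10.97 with p63 shRNA, a difference of -0.74 ± 0.08 or 1.67-fold. ILMN_2348788 stood at 8.87, 8.83 and 8.71 against 7.74, 7.90 and 8.01, a difference of -0.92 ± 0.11 or 1.89-fold. ILMN_1778625 was detected on 2 control arrays and on 0 p63 shRNA arrays, and was at least 1.29-fold lower. The groups did not overlap on any of the 3 probes, but these read the same gene, which this comparison had chosen. Of the basal markers, KRT5 stood at a mean of 9.71 with non-targeting shRNA and was undetected with p63 shRNA, CDH3 stood at 10.09 and 8.76, and KRT14 was undetected in both. Their part in the CD44 difference was not tested.

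The order of CD44 between lines depended on the scaling and the probe. After quantile normalization ILMN_1803429 was highest in Scaber with either siRNA, whose arrays overlapped, while UC14 with non-targeting shRNA and UC7 controls overlapped at 11.69 ± 0.03 and 11.67 ± 0.06. Under median scaling UC7 controls were highest (12.18), above Scaber with non-targeting siRNA (11.91), and on ILMN_2348788 UC7 controls had the highest mean under either scaling, overlapping with Scaber controls after quantile normalization. UC14 with p63 shRNA and UC7 with rosiglitazone held the lowest 2 places on ILMN_1803429 in both, at 10.95 ± 0.02 and 10.05 ± 0.05 after quantile normalization, and overlapped under median scaling at 10.54 and 10.57.

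The gap between CD44 probes on an array describes whether they moved by equal amounts. Between ILMN_1803429 and ILMN_1778625 it was 5.16 to 5.23 on UC7 control arrays and 4.68 to 4.91 under rosiglitazone, so on this scale ILMN_1803429 fell by more. This depended on the scaling: under median scaling the gap was 5.01 to 5.05 and 4.91 to 5.12, and the falls were 1.61 and 1.60, or 1.55 and 1.57 with neqc on the line alone. Between ILMN_1803429 and ILMN_2348788 it was 2.00 to 2.33 and 2.32 to 2.45, and the arrays overlapped. ILMN_1778625 was near background under rosiglitazone, with detection p of 0.0026 to 0.0039.

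**Figure D3:**
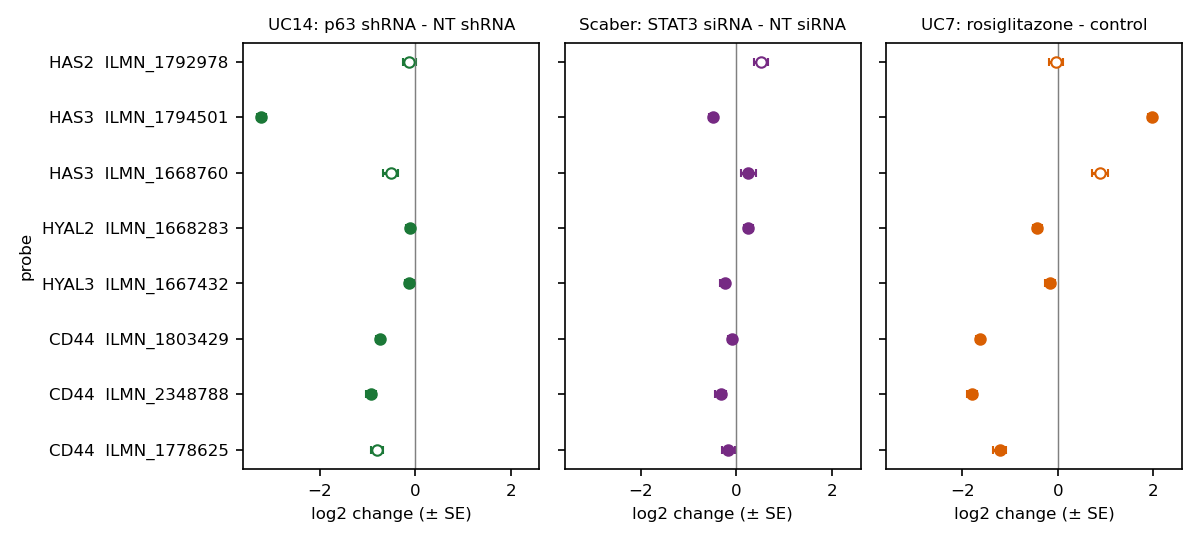
Log2 change, treated minus control, of the 8 kept probes (rows) in UC14, Scaber and UC7, with bars of ± 1 standard error from limma. Open points were not detected on all 3 arrays of 1 of the groups. The brighter HAS3 probe lies at -3.22, -0.49 and 1.97, and the 3 CD44 probes lie between -1.80 and -1.22 in UC7.

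HAS2 is left out of the following counts, since it passed the filter only through the group where it is high. By gene, each represented by its brightest kept probe, 1 of the other 4 passed as higher in Scaber (HYAL2) and 1 as lower (HAS3), where 11.8% of all 11978 genes were higher and 13.6% lower. In UC7, 1 of 4 was higher (HAS3) and 2 lower (HYAL2 and CD44), where 12.0% of all genes were higher and 11.6% lower. In UC14 23.3% of all genes were higher and 20.5% lower; nothing is read from the members there. With so few genes these shares are not a result about the family.

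The balance of HAS3 and CD44 on each array differed between groups. HAS3 minus CD44, on their brightest probes, averaged -3.70 in UC7 controls, from -3.81 to -3.62, and -0.10 under rosiglitazone, from -0.19 to -0.04. In Scaber it averaged -1.15 with non-targeting siRNA and -1.53 with STAT3 siRNA, and in UC14 -1.95 and -4.43. The zero of this difference is set by the probes and has no meaning of its own, so only its shifts between groups are described. On these probes rosiglitazone shifted the difference upwards and both knockdowns downwards. In Scaber the dimmer HAS3 probe changed by 0.25 ± 0.16, so the downward shift there rests on the brighter probe. The UC14 comparison had chosen both genes. The interventions were made in different lines, and a difference between them was not tested.

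**Figure D4:**
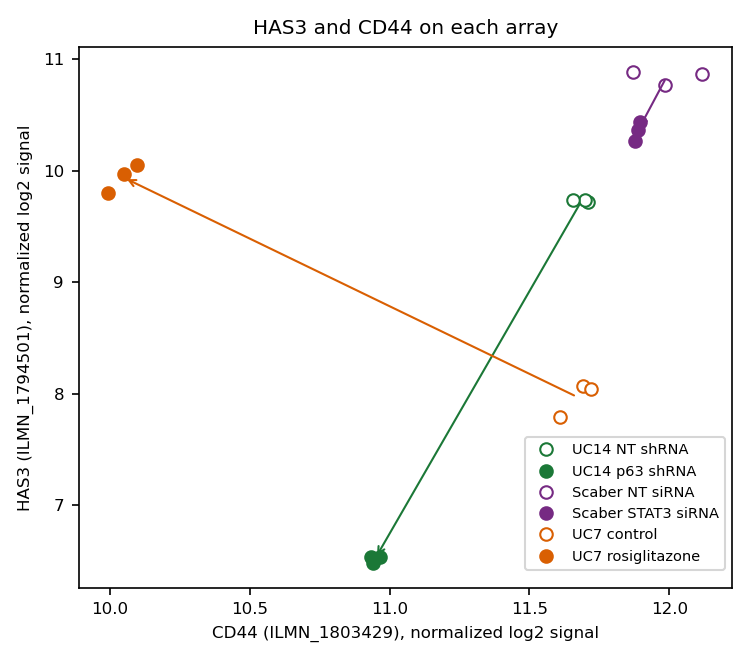
HAS3 (vertical axis) against CD44 (horizontal axis) as normalized log2 signals of their brightest probes on 18 arrays. Open points are controls, filled points treated, and arrows join the group means of a line from control to treated. The UC7 arrow runs to less CD44 and more HAS3, the UC14 arrow to less of both, and the Scaber arrow is short.

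Between the control groups of Scaber and UC7, HAS3 and HYAL2 stood in opposite order. HAS3 was 7.32-fold higher in Scaber (2.87 ± 0.09, adjusted p = 5.36e-14 by limma), and its dimmer probe at least 2.15-fold higher on background-corrected values. HYAL2 was 3.12-fold lower in Scaber (-1.64 ± 0.09, adjusted p = 2.9e-11). In this comparison 32.1% of all genes were higher in Scaber and 42.8% lower, with a median change of -0.17, or -0.87 under median scaling, where HAS3 differed by 2.03 and HYAL2 by -2.57. Line, array run and the non-targeting siRNA, which the labels give for the Scaber controls only, cannot be told apart here.

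The CD44 probes disagreed between the same controls. ILMN_1778625 was 2.20-fold higher in Scaber (1.14 ± 0.13, adjusted p = 6.9e-07 by limma), ILMN_1803429 differed by 0.32 ± 0.08 (0.0017) and ILMN_2348788 by -0.07 ± 0.11 (0.57). Under median scaling the difference on ILMN_1803429 turned to -0.27, that on ILMN_2348788 to -0.96, and that on ILMN_1778625 to 0.20 (adjusted p = 0.231), so no order of CD44 between these lines is given. HYAL3 differed by -0.13 ± 0.10 (adjusted p = 0.263).

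Other genes of the pathway were listed by role, 60 in all, of which 55 had a named probe and 34 passed the detection filter. Of the 34, 3 were higher and 9 lower in UC7, where 12.0% of all genes were higher and 11.6% lower. In Scaber 3 were higher and 6 lower, beside 11.8% and 13.6% of all genes, and in UC14 4 were higher and 10 lower, beside 23.3% and 20.5%. These counts are not read as particular to the list. The median change was -0.04 in UC7, -0.04 in Scaber and -0.06 in UC14 (-0.07 over the 27 measured there, with bounds), beside medians over all genes of -0.001, 0.014 and 0.006. The count higher in UC7 was 1 under median scaling, and 1 without rosiglitazone array 3 or without control array 2. These genes were not used in choosing the family, but their list was drawn up with earlier results of these data known. Their p-values are therefore not independent of that knowledge.

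Of 6 tested genes that make the sugar nucleotides, UAP1, which forms UDP-N-acetylglucosamine, and UGDH, which forms UDP-glucuronic acid, both fell in UC7. UAP1 changed by -0.68 ± 0.10 (adjusted p = 7.95e-05 by limma) and UGDH by -0.45 ± 0.08 (0.000497), while HAS3 rose in the same cells. In UC14 both were also lower, by -0.62 and -0.32. In Scaber neither passed, and GFPT1, the first enzyme of the hexosamine route, fell by 0.47 ± 0.10 (adjusted p = 0.00202). On its brightest probe no gene of this role passed as higher, but the probes of UGP2, which forms UDP-glucose, disagreed. In UC14 3 of its 4 other probes were higher, the largest at 1.02 ± 0.15 and 1 of the 3 detected on only 1 of the 6 arrays, while the brightest changed by 0.29 ± 0.14, and in Scaber 1 of the 4 was higher, by 0.44 ± 0.15.

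Of 5 tested further enzymes, CEMIP, a hyaluronan-degrading protein outside the HYAL family, changed by -2.28 ± 0.20 in UC14 (adjusted p = 1.63e-07 by limma) and was detected on 1 p63 shRNA array. HYAL4, a relative of the hyaluronidases that acts on chondroitin sulfate, rose by 1.04 ± 0.13 in UC14, and the lysosomal glucuronidase GUSB by 1.02 ± 0.11. In Scaber the lysosomal hexosaminidase subunit HEXA passed as lower (adjusted p = 0.0111), at least 1.09-fold, but the arrays of its groups overlapped. None of the 5 passed in UC7.

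Of 9 tested receptors and binding proteins, VCAN, a large hyaluronan-binding proteoglycan, was 10.1-fold lower in UC14 under p63 shRNA (-3.33 ± 0.11, adjusted p = 7.77e-13 by limma). HMMR, a hyaluronan-binding protein of the mitotic spindle, was lower in UC14 by -0.71 ± 0.09 and in Scaber by -1.02 ± 0.09 (adjusted p = 9.22e-07), and its other kept probe was called the same way in both. LAYN, a membrane receptor, rose by 0.61 ± 0.11 in Scaber (adjusted p = 0.000553). HABP4 rose there by 0.92 ± 0.12 (3.59e-05), though its other probe did not pass. C1QBP, a mitochondrial protein also found to bind hyaluronan, was lower in UC14 (-0.92) and UC7 (-0.33) and higher in Scaber (0.35). ITIH5 rose by 0.27 in UC14, from 14.26 to 14.53, and its means in all groups of Scaber and UC7 lay between these levels. Whether its probe reads changes in full at this signal was not tested. VCAN was undetected in all groups of Scaber and UC7.

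Of 9 tested partners of CD44, 5 fell and 2 rose in UC7, with a median change of -0.47. Of all genes 11.6% were lower and 12.0% higher there, with a median of -0.001. With 9 genes, these counts are not a result about the role. The 5 were the 3 ERM proteins that tie CD44 to the actin cortex, MSN at -0.98 ± 0.15 (adjusted p = 0.000157 by limma), RDX at -0.85 ± 0.13 (0.000108) and EZR at -0.47 ± 0.10 (0.00276), with the scaffold IQGAP1 at -0.47 ± 0.13 and the receptor kinase MET at -0.69 ± 0.11. CD74, the invariant chain that signals with CD44, rose by 2.32 ± 0.13 (adjusted p = 7.66e-10) and was detected on 1 control array. ADAM17, a sheddase, rose by 0.42 ± 0.13, though neither of its other 2 probes passed.

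In UC14, MET was lower (-1.11 ± 0.11), RDX was higher (0.86 ± 0.13) and ADAM17 was lower on all its probes (-0.47 ± 0.13 on the brightest). RDX thus passed in opposite directions in UC14 and UC7. In Scaber the CD44 sheddase ADAM10 fell by 0.42 ± 0.10 (adjusted p = 0.00601 by limma), and ADAM17 by 0.53 ± 0.13 on 1 of 3 probes. Of 5 tested regulators of CD44 splicing, ESRP1, which favours variant exons, rose by 0.38 ± 0.13 in UC7 (adjusted p = 0.0414 by limma). ESRP1, ADAM17 and CD74 were the 3 pathway genes higher in UC7, and that count fell to 1 in some settings. Which of them kept the call is not given here. HNRNPA1 fell in UC7 by 0.53 ± 0.13 (adjusted p = 0.00621 by limma), though its other probe did not pass. In UC14 HNRNPA1 (-0.59) and SRSF1 (-0.26) were lower, and in Scaber SRSF1 (-0.26).

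**Figure D5:**
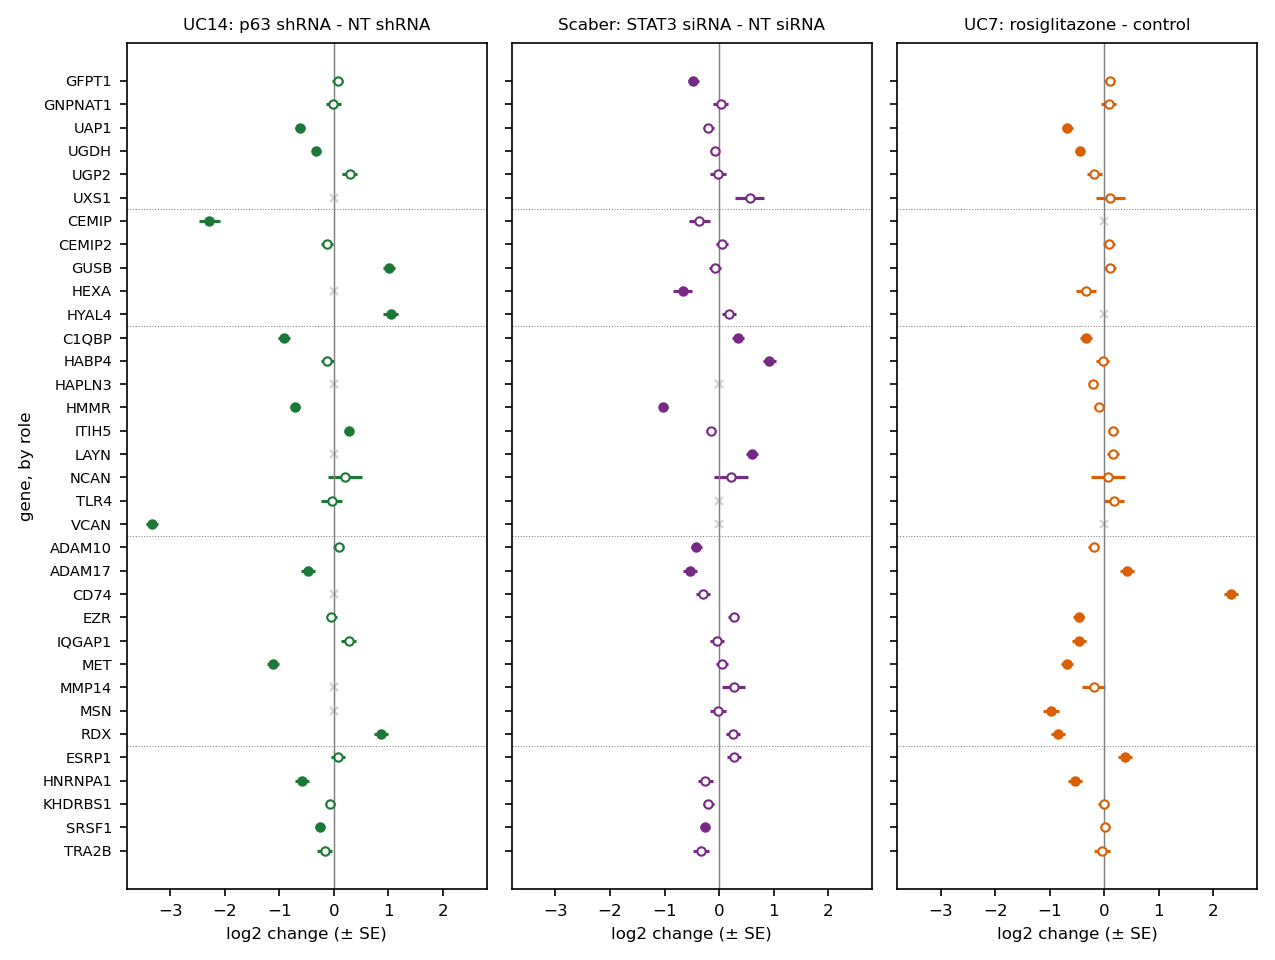
Log2 change ± standard error of 34 tested pathway genes (rows, dotted lines part the roles) in UC14, Scaber and UC7. Filled points have an adjusted p under 0.05, open points do not, and grey crosses at 0 mark genes undetected in both groups, for which no change is given. VCAN in UC14 and CD74 in UC7 lie farthest from 0, at -3.33 and 2.32.

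Genes beside the members on their chromosomes were read as a description, each by its brightest probe. In UC7, where HAS3 rose, its tested neighbours UTP4 (-0.02), SNTB2 (-0.04) and VPS4A (-0.16) did not pass. Neither of the CD44 neighbours PDHX (-0.11) and APIP (0.16) passed where CD44 fell, nor did the HAS2 neighbours ZHX2, DERL1 and MTBP. Beside the HYAL cluster on chromosome 3, 1 of 8 tested genes passed in UC7, where 12.0% of all genes were higher and 11.6% lower. This was the semaphorin SEMA3F, which rose by 1.65 ± 0.18 (adjusted p = 3.4e-06 by limma). The probes of SEMA3B disagreed there. Its brightest changed by -0.23 ± 0.11 and did not pass (adjusted p = 0.18 by limma), while its other probe passed as higher.

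In UC14, where 23.3% of all genes were higher and 20.5% lower, neighbours passed in both directions. UTP4 beside HAS3 and PDHX beside CD44 were lower, as those members were, by -0.61 ± 0.08 and -0.38 ± 0.13. SNTB2 beside HAS3 was higher (0.42 ± 0.12), though its other probe did not pass. VPS4A beside HAS3 (0.25) and APIP beside CD44 (-0.03) did not pass, though the other probe of APIP was higher. Of the 8 genes beside the HYAL cluster, 4 were higher and 2 lower, with SEMA3B at least 4.22-fold higher and SEMA3F lower by -0.76. Beside HAS2, ZHX2 was at least 1.68-fold lower and MTBP differed by -0.76. In Scaber, UTP4 rose by 0.29 ± 0.08 where HAS3 fell, NPRL2 beside the HYAL cluster rose by 0.28 ± 0.08, ZHX2 rose by 0.65 ± 0.10 and MTBP was at least 1.42-fold lower. The other probe of ZHX2 passed in neither line.

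The genes whose levels over the 18 arrays were most like those of HAS3 were SH3PXD2A (Pearson r = 0.926), RDH10 (0.907), CKMT1A (0.904), FOXK1 (0.903) and RNF144B (0.901). The most opposite were BMPR2 (-0.946), STIM1 (-0.937), NQO1 (-0.928), HHAT (-0.924) and MROH6 (-0.923). RDH10, a retinol dehydrogenase, shared the sign of HAS3 in each comparison, at -0.86 in UC14, -0.91 in Scaber and 1.20 in UC7. Of the other 4 alike genes, 3 had the opposite sign to HAS3 in Scaber (CKMT1A, FOXK1 and RNF144B).

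The genes most like CD44 were SNAI2 (r = 0.953), CD59 (0.945), TGFBI (0.940), TRAM2 (0.938) and F3 (0.935). SNAI2, a transcriptional repressor of epithelial genes, differed by -2.43 in UC14 and -2.72 in UC7, and F3, tissue factor, by -0.82 and -3.33. The most opposite were ACSBG1 (-0.978), CAMK2G (-0.970), TNFAIP2 (-0.957), RCN1 (-0.956) and PLA2G2A (-0.955). ACSBG1, an acyl-CoA synthetase, differed by 1.22 in UC14 and 3.92 in UC7. These correlations describe 18 arrays that share lines, groups and a common normalization, and are not tests.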

How the data were processed

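Total RNA of 18 samples was measured on Illumina bead arrays. Per the file headers, the authors exported signal intensities of 47323 probes, on a linear scale and not normalized, from GenomeStudio (version not given in the sources used here), each with a deposited detection p-value. The authors also deposited normalized log2 values, used here as an alternative. Limma is named in the submitters' processing notes, with no version.

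The neqc function of limma 3.58.1 (R 4.3.3) gave the values used: normexp background from detection p-values, an offset of 16, quantile normalization over the 18 arrays, and log2. The platform annotation named 30113 probes with 1 symbol each, and 16221 of these were kept because a group had them detected (p under 0.01) on its 3 arrays. A linear model of group means over the 18 arrays was fitted with lmFit, and eBayes moderated the spread (prior degrees of freedom 4.27, residual 12). Tests were two-sided, with Benjamini-Hochberg adjustment over every kept probe and a threshold of 0.05. A gene was represented by its kept probe with the highest mean. A standard error is pooled over all 18 arrays; array weights ranged from 0.37 to 0.774 for UC14 and from 1.16 to 2.44 for UC7, so UC14 errors may be understated and UC7 errors overstated. Where 1 group was undetected on all 3 arrays, the fold is a lower bound. The fit was tested on simulated data. The number of arrays limits the precision.

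The members, the pathway and neighbour lists and the tests were chosen with earlier results of these data known. Named were every probe of the members, list genes past the threshold (for each role those with the largest changes first), the 5 genes most like and the 5 most opposite to HAS3 and CD44, and STAT3 and PPAR targets as checks. Of these checks in UC7, PDK4 changed by 0.96, ANGPTL4 by 0.78 (adjusted p = 0.0253) and PLIN2 by -0.24 (0.14).

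Same-numbered arrays of a line did not deviate together throughout (correlations of their deviations from the group means, -0.093 to 0.232 over 9 pairs), so the replicate numbers were not used as pairs. Alternatives changed the background correction, the scaling, the source of values, the detection filter, the probes per gene, the weights, the spread estimate, the arrays in the fit, the replicate block, or left out each array in turn. Arrays cannot be placed in runs beyond their line, so no batch within a line was tested.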

Additional observations from a re-analysis of the deposited data

How the results depend on the processing

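The changes of HAS3 (brighter probe), HYAL2 and CD44 (all 3 probes) in UC7, and of HAS3 in Scaber, kept their direction and their side of the threshold under every alternative run. The size of ILMN_1778625 in UC7 ranged from -1.60 to -0.52, and that of the dimmer HAS3 probe from 0.35 to 1.24. HAS3 ranged from 1.68 to 2.04 in UC7 and from -0.62 to -0.43 in Scaber, and the brightest CD44 probe from -1.66 to -1.55 in UC7. HAS3 in UC14 (-3.22) was -2.43 without background correction, -2.55 with the deposited values, -3.14 under median scaling and -3.31 with neqc on the line alone. HYAL2 in Scaber (0.25, adjusted p = 0.0406 by limma) lost its call at 0.16 (0.0812) without background correction, 0.07 (0.837) under median scaling, 0.18 (0.085) with the deposited values, 0.25 (0.0596) with trend and robust settings, 0.25 (0.101) with the 6 arrays of the line, 0.24 (0.123) with neqc on the line alone, and 0.25 with a replicate block by number (0.0578) or by title letter (0.0759). Without 1 array it was 0.23 to 0.29. HAS2 in Scaber (0.51) was read on a probe kept only through the group where it is high, so no test is given. Its difference was 0.18 without background correction, 0.35 under median scaling, 0.21 with the deposited values and 0.40 with neqc on the line alone. With the 6 arrays of the line it was 0.51, and without 1 array 0.34 to 0.61. Median scaling turned HYAL2 in UC14 to 0.11 and the brightest CD44 probe between controls to -0.27, moved HYAL3 in UC14 to 0.09 and CD44 there to -0.61, and moved the median of all genes by about 0.10 in UC14 and to -0.87 between controls. HYAL3 between controls passed at -1.08 under median scaling, at -0.19 with array weights (adjusted p = 0.0454) and at -0.23 without Scaber control array 3 (0.0496). The count of pathway genes higher in Scaber (3) was 5 with array weights. That in UC7 (3) was 1 under median scaling and with a replicate block by number or by letter, and 1 to 3 without 1 array, with 1 left when rosiglitazone array 3 or control array 2 was left out. All genes called in UC7 numbered 2825, but 4854 with array weights, 4711 with the 6 arrays of the line and 4405 with neqc on the line alone. In the UC7 titles, letters and replicate numbers disagree for 2 rosiglitazone arrays. The cause of these changes was not tested. Signal over background limits HAS2 and the dimmer HAS3 probe, which lie near or below the lowest detected signals. It also limits the CD44 probe ILMN_1778625 in UC14 and in UC7 under rosiglitazone, while in Scaber that probe had means of 7.62 and 7.46.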
